A study of Mus musculus with 11 samples.

Results

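The matrix metalloproteinases (MMPs), the ADAMTS proteases and their tissue inhibitors (TIMPs) were followed in mouse spinal cord and fetal fibroblasts (MEF) that carry a heterozygous Morc2a p.S87L change or are wild-type. The members were every gene of the deposited table with an Mmp or Adamts symbol and a number, and Timp1 to Timp4. This gave 46 genes of 55487, with 23 MMPs, 19 ADAMTS genes and 4 TIMPs. The rule used symbols only, but it was chosen with earlier results of these data known.

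RNA was sequenced from S87L heterozygous spinal cord (3 libraries), wild-type spinal cord (3), S87L heterozygous MEF (2) and wild-type MEF (3), all of the C57BL/6 strain. MORC2A is a chromatin-associated ATPase, and variants of human MORC2 are known in inherited neuropathy. Age, sex and culture passage are not stated in the labels. Whether replicate libraries stand for separate animals or cultures is also left unclear there, so the p-values cover variation between libraries that could be technical. Recovered depth ran from 12.08 to 23.53 M reads per library. Neuronal, astrocyte and oligodendrocyte markers were abundant in the cord libraries, with summed levels of 1440 to 1470 FPKM over 10 neuronal genes in S87L cord and 1490 to 1510 FPKM in wild-type cord. FPKM, fragments per kilobase of gene scaled to the reads of the library, is a level per length. In MEF the neuronal list summed to 6.62 and 6.74 FPKM in S87L and 5.36 to 5.49 FPKM in wild-type libraries. The oligodendrocyte list summed to 5.03 and 5.09 FPKM in S87L MEF and 6.12 to 7.24 FPKM in wild-type MEF. Chat, Mog, Mobp and Opalin were listed at 0 in MEF. Stmn2 averaged 5.80 FPKM in S87L MEF and 4.46 FPKM in wild-type MEF, and Cnp 4.27 and 4.76 FPKM. In MEF, 10 fibroblast genes summed to 5220 and 5490 FPKM in S87L libraries against 5670 to 5710 FPKM in wild-type libraries.

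MMPs are zinc proteases that are made as inactive proenzymes and that cut collagens, proteoglycans and cell surface proteins outside the cell. ADAMTS proteases are secreted relatives that trim procollagens, cleave the proteoglycans aggrecan and versican, or bind fibrillin microfibrils. TIMPs bind the active site of these enzymes. In the nervous system these genes are known for remodelling of the perineuronal and perivascular matrix and for activity after injury, and in fibroblasts for turnover of collagen.

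A block of 10 MMP genes lies on chromosome 9 between positions 7272514 and 7699585 (GRCm38), in the order Mmp13, Mmp12, Mmp1b, Mmp3, Mmp1a, Mmp10, Mmp8, Mmp27, Mmp20 and Mmp7. The block holds Mmp13 and Mmp3, the 2 members called higher in S87L MEF, and the 250 bases upstream of their starts are shown here for that reason. RefSeq promoter windows of GRCm38.p6, running from 250 bases before to 50 bases after a start, were at hand for 32 of the 46 members. Capitals mark TGANTCA, the AP-1 motif, and TATAAA, the TATA box letters. The Mmp13 window is chr9:7272264-7272513 and the Mmp3 window chr9:7445572-7445821, both on the plus strand.
Mmp13: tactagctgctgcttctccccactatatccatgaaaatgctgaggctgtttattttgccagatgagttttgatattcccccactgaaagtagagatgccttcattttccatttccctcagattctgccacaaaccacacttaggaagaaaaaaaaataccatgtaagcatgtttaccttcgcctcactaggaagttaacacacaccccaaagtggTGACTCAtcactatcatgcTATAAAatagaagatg
Mmp3: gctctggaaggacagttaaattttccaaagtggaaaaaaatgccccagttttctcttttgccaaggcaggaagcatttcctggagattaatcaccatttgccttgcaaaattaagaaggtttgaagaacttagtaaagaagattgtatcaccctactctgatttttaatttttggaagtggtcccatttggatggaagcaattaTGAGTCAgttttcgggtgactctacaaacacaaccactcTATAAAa

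TGANTCA was searched on both strands and TATAAA on the strand of the gene, and the motifs did not overlap in any printed stretch. TGANTCA was found in 8 of the 12 windows in the chromosome 9 block and in 0 of the 23 windows of other members. Every block member had a window, so all members without one lay outside the block and were not searched. Over all 32851 RefSeq windows, 7.81% held it. TATAAA was found in 8 windows of the block and in 2 windows of other members, against 8.32% of all windows. The same 8 block windows held both, and in Mmp12 the TATAAA lay after the start. The other block members with TGANTCA are shown from 10 bases before that motif to the last base before the start, to let the spacing be compared. The stretches lie at chr9:7347320-7347373 (Mmp12, plus), chr9:7388027-7388129 (Mmp1b, minus), chr9:7464058-7464140 (Mmp1a, plus), chr9:7502269-7502341 (Mmp10, plus), chr9:7628126-7628230 (Mmp20, plus) and chr9:7692017-7692089 (Mmp7, plus).
Mmp12: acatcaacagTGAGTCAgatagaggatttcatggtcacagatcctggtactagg
Mmp1b: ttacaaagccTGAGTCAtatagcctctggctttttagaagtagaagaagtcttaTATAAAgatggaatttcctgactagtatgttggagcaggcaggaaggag
Mmp1a: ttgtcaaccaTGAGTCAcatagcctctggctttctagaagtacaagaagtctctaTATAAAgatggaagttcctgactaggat
Mmp10: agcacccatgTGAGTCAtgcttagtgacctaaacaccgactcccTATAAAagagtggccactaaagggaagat
Mmp20: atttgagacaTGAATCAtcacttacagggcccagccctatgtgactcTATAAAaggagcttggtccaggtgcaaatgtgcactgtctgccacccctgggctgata
Mmp7: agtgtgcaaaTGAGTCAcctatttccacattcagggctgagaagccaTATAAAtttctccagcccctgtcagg
In Mmp13 and Mmp3 the first base of TGANTCA lay 35 and 46 bases before the annotated start, and in Mmp10 it lay 63 bases before it. These matches describe the letters of the windows, and no binding was measured. The block genes did not share a level: Mmp1a, Mmp20 and Mmp7 carried both motifs and had 0 recovered reads in all 11 libraries.

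Wild-type cord and wild-type MEF expressed different members. Of 32 members with a mean of at least 0.5 FPKM over these libraries, 8 were higher and 23 lower in cord than in MEF at a limma adjusted p under 0.05. Over all 15962 genes tested, 47.4% were called higher and 40.3% lower, so the share of members called (96.9%) was read against a background of 87.6%. The same 8 and 23 members did not overlap between tissues, against 47.7% and 40.7% of all genes. Adamts7, Adamts12, Adamts14, Adamts15, Mmp3 and Mmp13 passed the filter only through wild-type MEF. Adamts16, Adamts20, Mmp24 and Timp4 passed it only through wild-type cord. All of these were thus favoured to be called higher in the tissue that let them pass. The median log2 difference was -1.94 over the tested members and 0.12 over all genes, on the log2(FPKM + 0.5) scale used for every log2 difference below, which understates the change of low genes. Adamts3, a procollagen N-propeptidase, was the tested member not called, with a log2 difference of 0.17 (SE 0.09, limma adjusted p = 0.104).

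Of the members, Timp2 had the highest mean level in both tissues. Timp2, which inhibits MMPs and also takes part in the activation of pro-MMP2 by MMP14, averaged 103 ± 1.26 FPKM in wild-type cord and 292 ± 3.69 FPKM in wild-type MEF (SD, n = 3 each). Timp1, the soluble inhibitor that rises in many inflamed tissues, averaged 0.622 ± 0.245 FPKM in wild-type cord and 199 ± 11.2 FPKM in wild-type MEF (SD, n = 3 each), a log2 difference of -7.49 (SE 0.16). Timp4, an inhibitor known from heart and brain, had the opposite distribution. Its mean was 16.1 ± 0.903 FPKM in wild-type cord and 0.0162 ± 0.00646 FPKM in wild-type MEF (SD, n = 3 each), the MEF value resting on a few reads.

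Among the proteases, cord was led by Adamts4, Mmp15, Mmp24 and Adamts1, while MEF was led by Mmp14, Mmp2 and Adamts1. Adamts4, an aggrecanase, averaged 31.7 ± 1.65 FPKM in wild-type cord and 7.28 ± 0.462 FPKM in wild-type MEF (SD, n = 3 each). Mmp15, a transmembrane MMP, averaged 11.1 ± 1.03 FPKM in wild-type cord and 1.15 ± 0.0293 FPKM in wild-type MEF. Mmp24, a membrane MMP best known from neurons, averaged 6.12 ± 0.261 FPKM in wild-type cord and 0.0154 ± 0.0157 FPKM in wild-type MEF. In the other direction, Mmp2, gelatinase A, averaged 1.44 ± 0.271 FPKM in wild-type cord and 125 ± 1.69 FPKM in wild-type MEF. Mmp14, the membrane collagenase that activates pro-MMP2, averaged 3.45 ± 0.367 FPKM in wild-type cord and 157 ± 2.06 FPKM in wild-type MEF. Mmp3 had 0 reads in all 3 wild-type cord libraries, where 3 reads over the group would be 0.035 FPKM, so its mean of 2.85 FPKM in wild-type MEF was at least 81.4-fold higher than in wild-type cord, for counting error only. The differences of Adamts16 and Mmp9 depended on scaling. Adamts16 had a log2 difference of 0.63 with the values as deposited and -0.19 after quantile normalization. Mmp9 had 0.57 with the values as deposited and lost its call after quantile normalization (limma adjusted p = 0.171).

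**Figure D1:**
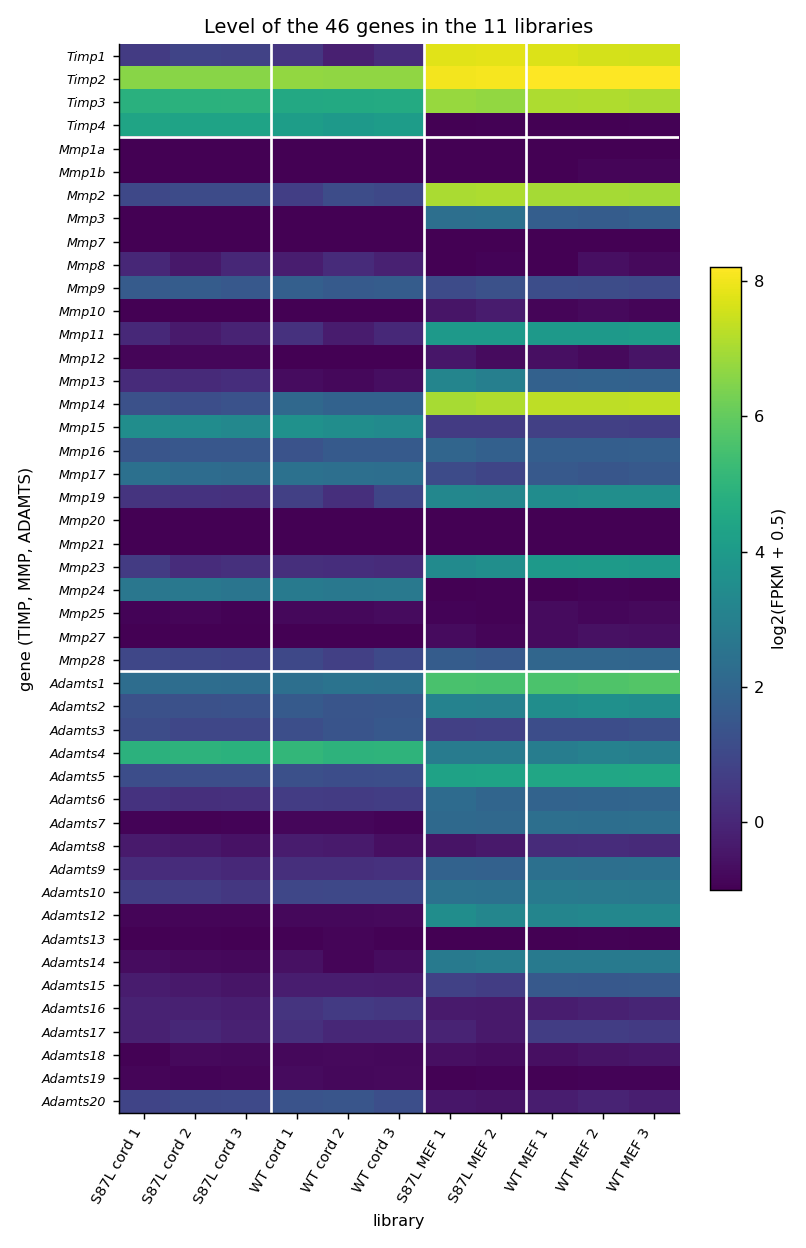
Colour gives log2(FPKM + 0.5) for each of the 46 genes (rows, grouped as TIMP, MMP and ADAMTS) in each of the 11 libraries (columns). Timp2 is high in every library, Timp1, Mmp14 and Mmp2 are high in the 5 MEF libraries, and Timp4, Adamts4, Mmp15 and Mmp24 are high in the 6 cord libraries.

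**Figure D2:**
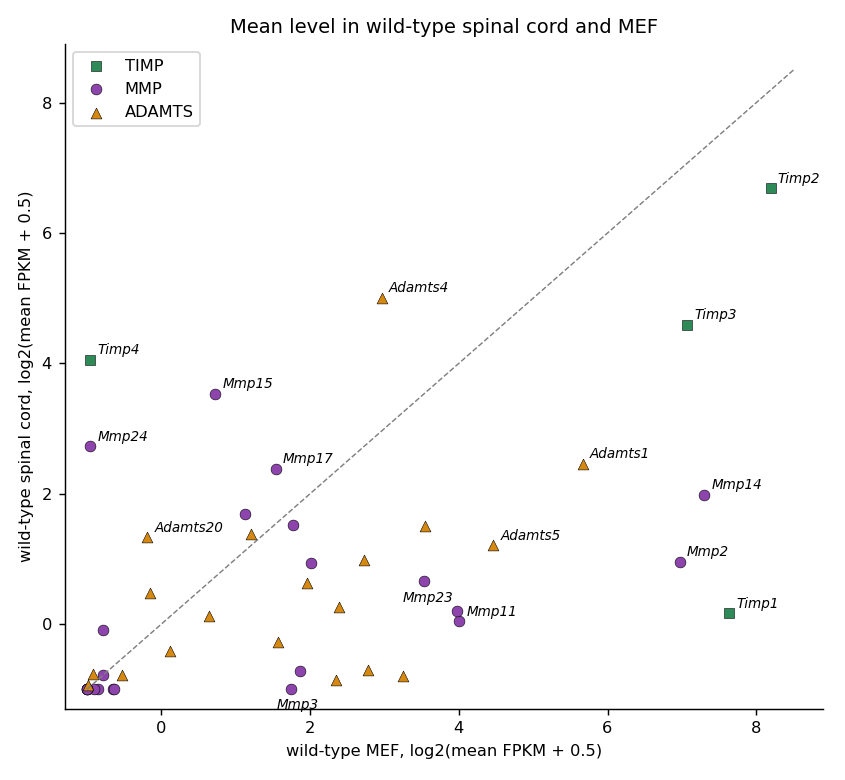
Each point is a member, with its wild-type cord mean (vertical) against its wild-type MEF mean (horizontal), both as log2(FPKM + 0.5), coloured by family, and the dashed line marks equal levels. Of the 32 tested members, 23 were called lower in cord and lie below the line.

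In MEF, 2 collagen- and matrix-degrading MMPs rose in S87L cells while 13 other members, spread over all 3 families, fell. The 28 tested members comprised 12 MMPs, 13 ADAMTS genes and 3 TIMPs. Of these, 15 (53.6%) were called at a limma adjusted p under 0.05, against 11.2% of all 13773 genes tested. The share called higher over all genes was 4.91% and the share called lower 6.32%. The groups did not overlap for 18 tested members that were lower and 6 that were higher in S87L MEF, against 25% and 20.8% of all genes tested, so with 2 against 3 libraries a lack of overlap was common. The median log2 difference was -0.15 over the tested members and -0.01 over all genes. The count called lower fell whichever wild-type library was left out: 6 members were called lower without wild-type replicate 1, and 5 without replicate 2 or replicate 3. In S87L MEF, fewer cells of a type and less RNA per cell cannot be told apart, and this holds for cord too.

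Mmp13 (chromosome 9, 7272514 to 7283331) is collagenase-3, the main secreted collagenase of mice. Its level was 8.62 and 7.39 FPKM in S87L MEF, against 3.12, 3.21 and 3.12 FPKM in wild-type MEF. Both S87L libraries stood above all wild-type libraries, and the mean was 2.54 times the wild-type mean. The log2 difference was 1.22 (SE 0.08, limma adjusted p = 8.15e-04), with an adjusted p of at most 0.00776 when any 1 library was left out. Mmp3 (chromosome 9, 7445822 to 7455975), stromelysin-1, cleaves proteoglycans and activates other pro-MMPs. It had 4.67 and 4.83 FPKM in S87L MEF and 2.85, 2.73 and 2.98 FPKM in wild-type MEF. The groups did not overlap, with a log2 difference of 0.65 (SE 0.06, limma adjusted p = 0.00294, at most 0.0189 with any 1 library left out). Their neighbour Mmp10, stromelysin-2, was too low to be tested, with 5 and 6 reads in S87L MEF and 1, 2 and 1 reads in wild-type MEF. Without a filter on low values its log2 difference was 0.44 (limma adjusted p = 0.126). Mmp12, macrophage elastase, lies between Mmp13 and Mmp3 and gave 24 and 9 reads in S87L MEF against 14, 8 and 20 in wild-type MEF, so the groups overlapped there.

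The membrane-bound and remaining MMPs that were called in MEF were all lower in S87L cells. Mmp14 (chromosome 14, 54431612 to 54445364) was the most abundant MMP, with 129 and 136 FPKM in S87L MEF and 158, 155 and 159 FPKM in wild-type MEF. Its log2 difference was -0.25 (SE 0.04, limma adjusted p = 0.0148), and the call was lost without any 1 of the 3 wild-type libraries (adjusted p up to 0.0687). Mmp17, a membrane MMP held by a lipid anchor, had 1.64 and 1.42 FPKM in S87L MEF and 2.47, 2.27 and 2.46 FPKM in wild-type MEF. Its log2 difference was -0.51 (SE 0.09, limma adjusted p = 0.0177), lost without any 1 wild-type library (up to 0.0744). Mmp23, a membrane-inserted MMP without the hemopexin domain of most relatives, had 10.1 and 11.1 FPKM in S87L MEF and 15.2, 15.7 and 14.6 FPKM in wild-type MEF. It differed by -0.50 on the log2 scale (SE 0.06, limma adjusted p = 0.00485) and was called with any 1 library left out.

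Mmp19 and Mmp28 are secreted MMPs. Mmp19 had 9.21 and 8.87 FPKM in S87L MEF and 10.8, 11.3 and 11.2 FPKM in wild-type MEF (log2 difference -0.28, SE 0.05, limma adjusted p = 0.0186, lost without wild-type replicate 2 or 3, up to 0.0791). Mmp28, epilysin, had 2.71 and 2.49 FPKM in S87L MEF and 3.57, 3.60 and 3.47 FPKM in wild-type MEF (log2 difference -0.38, SE 0.07, limma adjusted p = 0.0189, lost without any 1 wild-type library, up to 0.0762). Exons of Mmp19 share 22.3% of their bases with Tmem198b on the other strand and those of Mmp28 share 12% with 1700020L24Rik, and the use of strand in counting is not stated in the notes at hand. Mmp2, with 132 and 136 FPKM in S87L MEF and 126, 126 and 123 FPKM in wild-type MEF, was not called (log2 difference 0.10, 95% interval 0.01 to 0.19, limma adjusted p = 0.133).

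**Figure D3:**
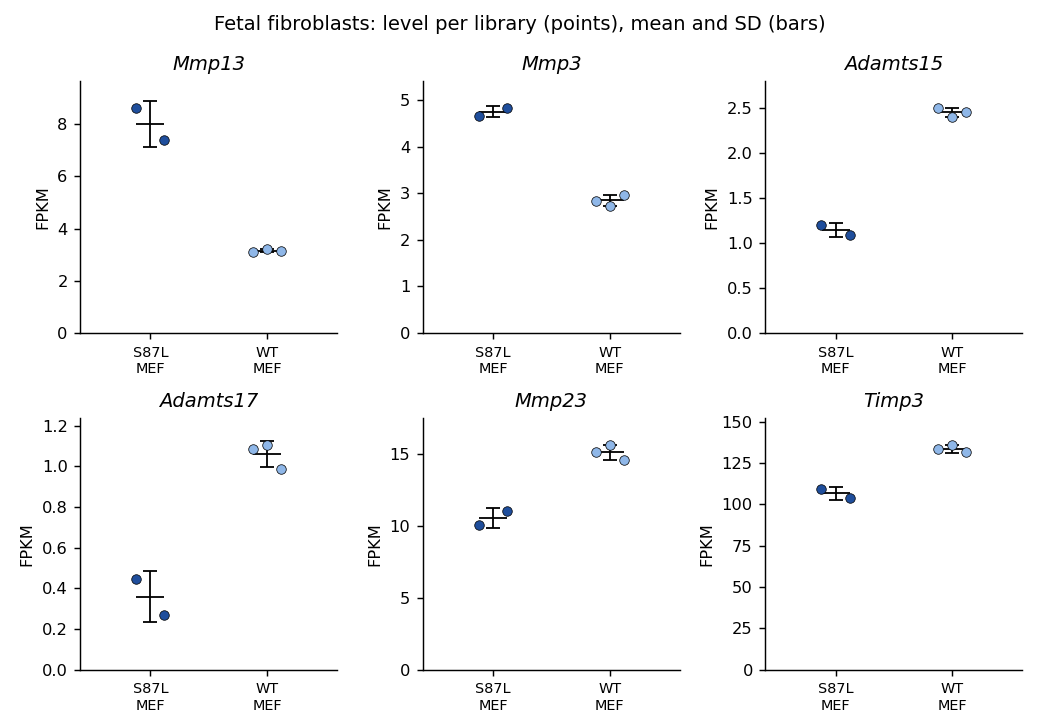
Level in FPKM (vertical) of Mmp13, Mmp3, Adamts15, Adamts17, Mmp23 and Timp3 in S87L MEF (2 libraries) and wild-type MEF (3 libraries), with points for libraries and bars for the mean and SD. Mmp13 and Mmp3 were higher in both S87L libraries than in any wild-type library, and the other 4 genes were lower in both.

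Of the 13 ADAMTS genes tested in MEF, 7 were called lower in S87L cells and none higher, with a median log2 difference of -0.23. Among the proteoglycanases, Adamts15 (chromosome 9, 30899155 to 30922452) had 1.20 and 1.09 FPKM in S87L MEF and 2.50, 2.40 and 2.46 FPKM in wild-type MEF. The log2 difference was -0.84 (SE 0.08, limma adjusted p = 0.00272), called with any 1 library left out. The next gene on that chromosome among the members is Adamts8 (30942562 to 30963838), another proteoglycanase, which was under the filter. It gave 0.204 and 0.264 FPKM in S87L MEF against 0.587, 0.620 and 0.558 FPKM in wild-type MEF, from 13 and 14 reads in S87L MEF against 37, 39 and 37 reads in wild-type MEF. The groups did not overlap, and without a filter the log2 difference was -0.57 (limma adjusted p = 0.0728). Adamts9, which cleaves versican and aggrecan, had 3.26 and 3.12 FPKM in S87L MEF and 4.81, 4.64 and 4.71 FPKM in wild-type MEF (log2 difference -0.50, SE 0.06, limma adjusted p = 0.00479, called with any 1 library left out). Adamts5, a main aggrecanase of mouse cartilage, had 19.3 and 19.5 FPKM in S87L MEF and 21.5, 21.2 and 22.1 FPKM in wild-type MEF and was not called (log2 difference -0.15, 95% interval -0.25 to -0.05, limma adjusted p = 0.0685). Adamts1, the most abundant ADAMTS gene of MEF, had 46.7 and 45.3 FPKM in S87L MEF and 48.2, 50.4 and 52.4 FPKM in wild-type MEF (log2 difference -0.13, limma adjusted p = 0.136).

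The procollagen N-propeptidases, which remove the amino-terminal propeptide of fibrillar procollagens, were called lower for 2 of their 3 genes. Adamts2 had 7.89 and 7.78 FPKM in S87L MEF and 10.97, 11.7 and 10.8 FPKM in wild-type MEF (log2 difference -0.48, SE 0.05, limma adjusted p = 0.00392, called with any 1 library left out). Adamts3 had 1.17 and 1.20 FPKM in S87L MEF and 1.77, 1.78 and 1.86 FPKM in wild-type MEF, and its call (log2 difference -0.45, limma adjusted p = 0.0238) was lost without any 1 of the 5 libraries (up to 0.0936). The third, Adamts14, overlapped between groups, with 6.47 and 6.94 FPKM in S87L MEF and 6.44, 6.21 and 6.52 FPKM in wild-type MEF (log2 difference 0.06, 95% interval -0.07 to 0.20).

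Adamts10, which binds fibrillin, had 4.90 and 4.78 FPKM in S87L MEF and 6.36, 6.08 and 5.95 FPKM in wild-type MEF. Its log2 difference of -0.31 (limma adjusted p = 0.0201) kept its call only without S87L replicate 2 (up to 0.0759 otherwise). Adamts17, whose human counterpart is mutated in a disorder resembling that of ADAMTS10, had 0.448 and 0.269 FPKM in S87L MEF and 1.08, 1.11 and 0.986 FPKM in wild-type MEF. The gene passed the filter of 0.5 FPKM only through wild-type MEF, with means of 0.359 FPKM in S87L MEF and 1.06 FPKM in wild-type MEF. It differed by -0.87 (SE 0.15, limma adjusted p = 0.0166), lost without any 1 wild-type library (up to 0.0683). Adamts7, which cleaves cartilage oligomeric matrix protein, had 3.88 and 3.80 FPKM in S87L MEF and 4.58, 4.52 and 4.66 FPKM in wild-type MEF. This was the call closest to the threshold (log2 difference -0.23, limma adjusted p = 0.0471), and it was lost without any 1 library (up to 0.149), with no filter, and after quantile or median ratio scaling.

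Timp3 (chromosome 10, 86300372 to 86349506) is the inhibitor that is bound to the matrix and that also blocks ADAMTS4 and ADAMTS5. It was the TIMP called in MEF, with 109.5 and 104 FPKM in S87L MEF and 133, 136 and 131 FPKM in wild-type MEF. The log2 difference was -0.32 (SE 0.04, limma adjusted p = 0.00631, at most 0.0427 with any 1 library left out). Timp3 lies inside Syn3 on the other strand, and 21.3% of its exon bases are shared with that gene, whose mean in MEF was 0.049 FPKM in S87L and 0.0937 FPKM in wild-type cells. Timp1 had 222 and 229.5 FPKM in S87L MEF and 211, 195 and 189.5 FPKM in wild-type MEF (log2 difference 0.19, 95% interval 0.06 to 0.32, limma adjusted p = 0.0784). Timp2 had 267 and 269 FPKM in S87L MEF and 295, 294 and 288 FPKM in wild-type MEF (limma adjusted p = 0.0683). Neither was called. Of the summed TIMP level, Timp1 made up 37.6% in S87L MEF and 31.8% in wild-type MEF, and Timp3 made up 17.8% in S87L MEF and 21.4% in wild-type MEF. The ratio of summed TIMP to summed MMP levels was 1.87 and 1.83 in S87L MEF and 1.87, 1.83 and 1.78 in wild-type MEF, so the groups overlapped in that ratio.

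The MEF libraries also differed in cell type markers. Of 10 cultured fibroblast markers, 4 were called lower in S87L MEF and none higher. Of 12 tested meningeal and fibroblast markers, 4 were lower, with a sum of 3560 and 3860 FPKM in S87L MEF against 4120 to 4170 FPKM in wild-type MEF. Of 12 tested microglia and macrophage markers, 3 were lower, with a sum of 231 and 240 FPKM in S87L MEF against 273 to 276 FPKM in wild-type MEF. Red blood cell and neutrophil markers were near 0, with Hba-a1, Hba-a2, Hbb-bs, Hbb-bt, Slc4a1 and Elane listed at 0. The part of these markers in the protease results was not tested.

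In spinal cord, S87L libraries had less Mmp14 and more Timp3 and Timp4. Several ADAMTS genes were also called lower, but of these calls only that of Adamts16 held with any 1 library left out. The 25 tested members were 10 MMPs, 11 ADAMTS genes and 4 TIMPs. Of these, 8 (32%) were called, with 2 higher and 6 lower, against 12.9% of all 15648 genes tested (5.17% higher and 7.71% lower). The median log2 difference was -0.10 over the tested members and -0.02 over all genes. The number called lower was 4 when wild-type replicate 1 was left out, 3 when replicate 2 or replicate 3 of that group was, and 2 when any 1 S87L library was. Of the 6 called lower in the main fit, Mmp14 and Adamts16 kept the call in every such fit. Adamts20 kept it only without wild-type replicate 3, and the others kept it in none. The counts without wild-type replicate 1 or replicate 2 thus include members not called in the main fit.

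Mmp14 was the MMP called in cord, of 10 tested, with 1.96, 1.82 and 2.01 FPKM in S87L cord and 3.87, 3.23 and 3.24 FPKM in wild-type cord. All S87L libraries lay below all wild-type libraries, with a log2 difference of -0.70 (SE 0.08, limma adjusted p = 0.00266, at most 0.016 with any 1 library left out). The abundant membrane MMPs of cord were not called. Mmp15 had 10.997, 10.7 and 9.44 FPKM in S87L cord and 12.1, 11.1 and 10.1 FPKM in wild-type cord (log2 difference -0.09, 95% interval -0.28 to 0.10). Mmp24 had 5.85, 5.97 and 5.55 FPKM in S87L cord and 6.40, 5.89 and 6.07 FPKM in wild-type cord (log2 difference -0.07, 95% interval -0.19 to 0.05). The gelatinases Mmp2 and Mmp9 likewise overlapped between groups, at 1.61 ± 0.103 FPKM in S87L cord and 1.44 ± 0.271 FPKM in wild-type cord for Mmp2, and 2.60 ± 0.160 FPKM in S87L cord and 2.72 ± 0.198 FPKM in wild-type cord for Mmp9 (SD, n = 3 each).

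Mmp13 was under the filter in cord, with a mean of 0.356 FPKM over the 6 libraries, and was therefore outside the counts above. It gave 31, 34 and 33 reads in S87L cord and 6, 3 and 5 reads in wild-type cord, or 0.589, 0.560 and 0.661 FPKM in S87L cord against 0.124, 0.0759 and 0.128 FPKM in wild-type cord. The groups did not overlap, and without a filter the log2 difference was 0.86 (SE 0.09, limma adjusted p = 0.00824). Mmp12, its neighbour, gave 7, 10 and 8 reads in S87L cord and 0, 0 and 1 reads in wild-type cord, with an adjusted p of 0.0779 without a filter. Mmp3 had 0 reads in all 6 cord libraries, where 3 reads over a group would be 0.0273 FPKM in S87L cord and 0.035 FPKM in wild-type cord.

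In most ADAMTS genes of cord the S87L libraries had the lower values. All but Adamts5 of the 11 tested had every S87L library below every wild-type library (90.9%, against 21.3% of all genes tested), 4 of them were called, and the median log2 difference was -0.22. Adamts16 and Adamts17 passed the filter of 0.5 FPKM only through wild-type cord, with means of 0.890 and 0.584 FPKM. Their S87L cord means were 0.396 and 0.436 FPKM, so these 2 were favoured to count as lower. Adamts16 (chromosome 13, 70727802 to 70841811) had 0.431, 0.406 and 0.353 FPKM in S87L cord and 0.792, 0.969 and 0.909 FPKM in wild-type cord. Its log2 difference was -0.63 (SE 0.11, limma adjusted p = 0.0109), called with any 1 library left out (at most 0.0441). The other calls were smaller and were lost in most or all fits that left out 1 library.

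Adamts10 had 1.10, 1.06 and 0.915 FPKM in S87L cord and 1.47, 1.51 and 1.48 FPKM in wild-type cord (log2 difference -0.38, SE 0.08, limma adjusted p = 0.0229, lost without any 1 of the 6 libraries, up to 0.0712). Adamts20, a versican-cleaving relative of Adamts9, had 1.34, 1.49 and 1.57 FPKM in S87L cord and 2.03, 2.22 and 1.82 FPKM in wild-type cord (log2 difference -0.36, SE 0.08, limma adjusted p = 0.0341, kept only without wild-type replicate 3, up to 0.109). Adamts6, which binds fibrillin, had 0.788, 0.683 and 0.701 FPKM in S87L cord and 1.06, 1.01 and 1.09 FPKM in wild-type cord (log2 difference -0.34, SE 0.09, limma adjusted p = 0.0446, lost without any 1 library, up to 0.15). After quantile normalization these 3 genes were not called (adjusted p of 0.0661, 0.0894 and 0.138). Adamts4, the most abundant ADAMTS gene of cord, had 29.9, 30.2 and 28.7 FPKM in S87L cord and 33.6, 30.4 and 31.1 FPKM in wild-type cord and was not called (log2 difference -0.10, 95% interval -0.20 to 0.01). The next nearest to a call were Adamts3 (log2 difference -0.35, limma adjusted p = 0.0626), Adamts2 (-0.22, adjusted p = 0.083) and Adamts1 (-0.17, adjusted p = 0.0833).

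The makeup of the summed TIMP level differed in S87L cord. Timp3 had 28.3, 29.0 and 29.6 FPKM in S87L cord and 22.9, 23.8 and 24.2 FPKM in wild-type cord, a log2 difference of 0.29 (SE 0.04, limma adjusted p = 0.00433, at most 0.0274 with any 1 library left out). Syn3, which shares exon bases with it, averaged 1.60 FPKM in S87L cord and 2.03 FPKM in wild-type cord. Timp4 had 20.2, 20.0 and 19.8 FPKM in S87L cord and 16.7, 15.1 and 16.6 FPKM in wild-type cord, a log2 difference of 0.30 (SE 0.05, limma adjusted p = 0.00853, at most 0.0416 with any 1 library left out). In both genes every S87L library was above every wild-type library. Timp2, the most abundant member of cord, was lower, with 94.8, 93.7 and 94.4 FPKM in S87L cord and 104, 102 and 103 FPKM in wild-type cord. That difference was small (log2 -0.12, SE 0.03, limma adjusted p = 0.0297) and was lost without any 1 library (up to 0.129) and under median ratio scaling (0.0598).

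Timp1 was not called, with 1.03, 1.34 and 1.27 FPKM in S87L cord and 0.871, 0.381 and 0.615 FPKM in wild-type cord, from 18, 27 and 21 reads in S87L cord against 14, 5 and 8 reads in wild-type cord (log2 difference 0.63, 95% interval 0.23 to 1.02, limma adjusted p = 0.0522). As shares of the summed TIMP level, Timp2 made up 65.3% in S87L cord and 71.8% in wild-type cord, Timp3 made up 20% in S87L cord and 16.5% in wild-type cord, and Timp4 made up 13.8% in S87L cord and 11.3% in wild-type cord. The summed TIMP level itself was 144.5 FPKM in S87L cord and 143.1 FPKM in wild-type cord. The ratio of summed TIMP to summed MMP levels was 4.13, 4.29 and 4.54 in S87L cord and 3.80, 4.01 and 4.07 in wild-type cord, without overlap.

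**Figure D4:**
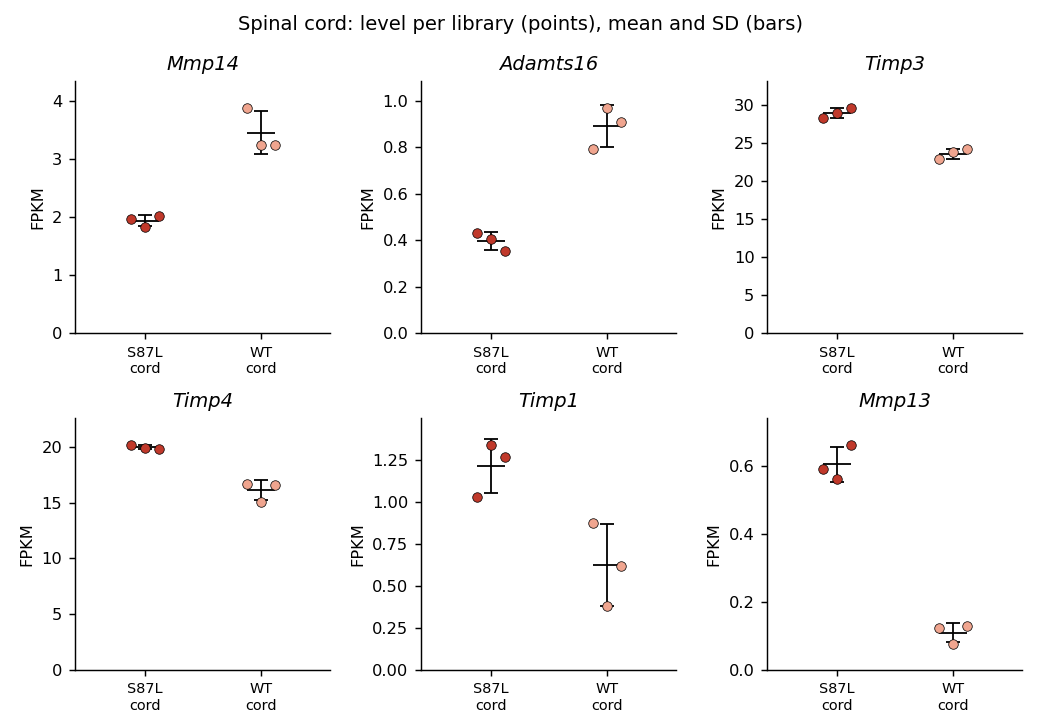
Level in FPKM (vertical) of Mmp14, Adamts16, Timp3, Timp4, Timp1 and Mmp13 in S87L and wild-type spinal cord (3 libraries each), with points for libraries and bars for the mean and SD. Mmp14 and Adamts16 were lower in every S87L library than in any wild-type library, the other 4 had higher values in every S87L library, and of these Timp1 was not called and Mmp13 was under the filter.

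Markers of other tissue moved with genotype in cord. Of 14 tested skeletal muscle markers, 13 were called higher in S87L cord, with a median log2 difference of 1.67 over the 14. The list summed to 221 to 228 FPKM in S87L cord against 145 to 158 FPKM in wild-type cord. Most of these sums was Pvalb, the tested gene not called, at means of 132.5 FPKM in S87L cord and 131.1 FPKM in wild-type cord. The sums therefore understate the difference of the other muscle markers. Of 14 meningeal and fibroblast markers, 10 were higher (475 to 508 FPKM in S87L cord against 354 to 380 FPKM in wild-type cord), and of 14 microglia and macrophage markers, 10 were higher (278 to 297 FPKM in S87L cord against 219 to 241 FPKM in wild-type cord). Of 6 red blood cell markers, 3 were higher (409 to 448 FPKM in S87L cord against 337 to 372 FPKM in wild-type cord). Of 6 tested neutrophil markers, none was called, and of 10 neuronal markers, 3 were lower. No gene of these lists was at 0 in all cord libraries. The part of these markers in the results for Timp3, Timp4, Mmp13 and the other members was not tested.

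Whether the genotype difference itself differed between tissues was tested for the 21 members at 0.5 FPKM or more in both, as MEF minus cord. It differed for 7 (33.3%), with 2 positive and 5 negative, against 13.2% of all 12389 genes tested (6.03% positive and 7.14% negative). Timp3 differed most clearly, being lower in S87L MEF (-0.32) and higher in S87L cord (0.29), with a difference of -0.61 (SE 0.05, limma adjusted p = 4.21e-05, at most 2.98e-04 with any 1 library left out). Mmp14 was lower in S87L samples of both tissues, by a log2 difference of -0.25 in MEF and -0.70 in cord. The difference of 0.45 between these (SE 0.09, limma adjusted p = 0.00824) was called with any 1 library left out.

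The other 5 each lost the call in at least 1 fit that left out a library. Adamts6 had 4.18 and 3.47 FPKM in S87L MEF and 3.31, 3.37 and 3.46 FPKM in wild-type MEF, where S87L was not lower as it was in cord. Its log2 difference was 0.15 in MEF and -0.34 in cord (difference 0.49, SE 0.11, limma adjusted p = 0.015, 0.0724 without S87L MEF replicate 1). In cord Mmp23 had 1.02, 0.621 and 0.709 FPKM in S87L and 0.684, 0.664 and 0.584 FPKM in wild-type libraries, which overlapped. Its log2 difference was -0.50 in MEF and 0.15 in cord (difference -0.66, SE 0.15, limma adjusted p = 0.0141, 0.0658 without S87L MEF replicate 1). In cord Mmp17 had 4.78, 4.30 and 4.09 FPKM in S87L and 4.96, 4.66 and 4.54 FPKM in wild-type libraries, also with overlap. Its log2 difference was -0.51 in MEF and -0.10 in cord (difference -0.42, SE 0.10, limma adjusted p = 0.0215, lost without wild-type cord replicate 3, S87L cord replicate 1 or S87L MEF replicate 2, up to 0.0709). In cord Adamts9 had 0.618, 0.623 and 0.537 FPKM in S87L and 0.672, 0.678 and 0.740 FPKM in wild-type libraries, and Adamts17 had 0.406, 0.510 and 0.393 FPKM in S87L and 0.711, 0.514 and 0.528 FPKM in wild-type libraries. Neither gene overlapped between groups in cord. The log2 differences of Adamts9 and Adamts17 were -0.50 and -0.87 in MEF and -0.13 and -0.21 in cord. Their differences of -0.37 and -0.66 (limma adjusted p of 0.0294 and 0.0378) were lost without most single libraries (up to 0.0811 and 0.121). In cord, 4 of these 7 (Mmp17, Mmp23, Adamts9 and Adamts17) were not called for genotype.

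Of the 21 members tested in both tissues, 3 were called for genotype in both. The share of all genes called in both was not computed, so this count has no background to be read against. Adamts10 and Mmp14 were lower in both and Timp3 went opposite ways. Mmp13, tested in MEF only, had higher values in every S87L library than in any wild-type library of either tissue's own comparison. Adamts2 and Adamts3 were called lower in MEF and had negative log2 differences in cord that missed the threshold, and for these genes a difference between the tissues was not called.

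**Figure D5:**
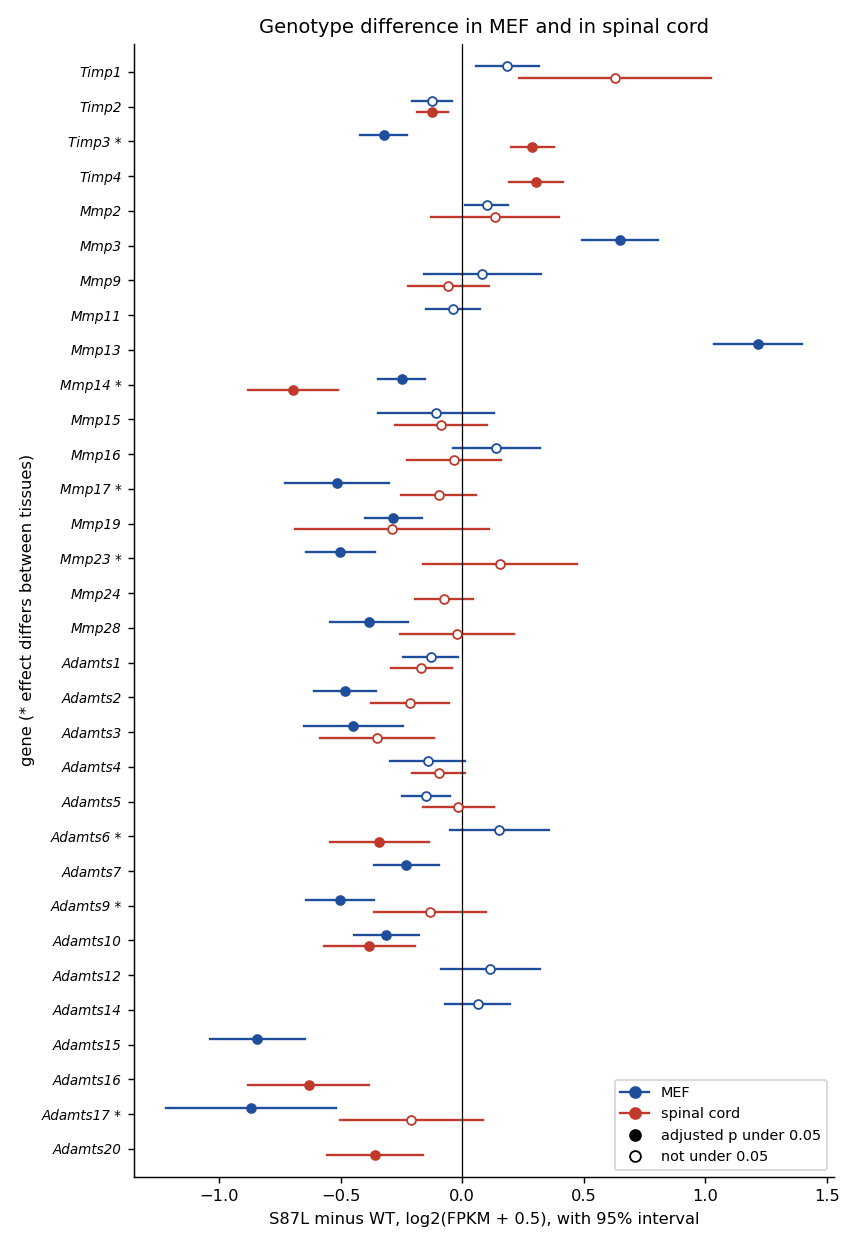
Genotype difference, S87L minus wild-type on the log2(FPKM + 0.5) scale with its 95% interval, of each member tested in MEF (blue) or cord (red), with filled points at an adjusted p under 0.05 and a star where the difference between tissues was called. Timp3 lies left of 0 in MEF and right of 0 in cord, Mmp13 has the largest positive MEF difference, and most ADAMTS points lie left of 0 in both.

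Genes that act with these proteases were taken as 9 lists of 60 genes in all. Over all genes tested, 4.91% were called higher and 6.32% lower in MEF, and 5.17% higher and 7.71% lower in cord. In MEF, 11 of 49 tested were called higher and 14 lower, and the counts fell to 4 to 9 higher and 6 to 12 lower when 1 library was left out, lowest without a wild-type library. The plasminogen activation genes, whose products activate plasmin and through it pro-MMPs, were higher for 4 of 5 tested and lower for none. Plau, urokinase, averaged 34.8 FPKM in S87L MEF and 26.1 FPKM in wild-type MEF (log2 difference 0.41, limma adjusted p = 0.00849), and was called with any 1 library left out. Plat, tissue plasminogen activator, and the urokinase receptor Plaur, at log2 differences of 0.27 and 0.29, lost their calls without any 1 wild-type library.

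Among cofactors and membrane inhibitors in MEF, 2 of 7 tested were higher and 1 lower. Cd44, a hyaluronan receptor that docks MMPs at the cell surface, averaged 81.2 FPKM in S87L MEF and 57.6 FPKM in wild-type MEF (log2 difference 0.49, limma adjusted p = 0.00171). Spock3 was higher by 0.59. Reck, a membrane-anchored MMP inhibitor, averaged 8.98 FPKM in S87L MEF and 11.96 FPKM in wild-type MEF (-0.40, adjusted p = 0.0295). Spock3 and Reck lost their calls without any 1 wild-type library, up to 0.146 and 0.099. Of 5 matrix serine proteases, 4 were lower and none higher, led by Htra3 at -0.70 (adjusted p = 0.00111) and Prss35 at -0.39, both called with any 1 library left out, and followed by Prss23 at -0.20 and Htra1 at -0.19. Of 4 proprotein convertases, which remove prodomains, 2 were lower (Pcsk6 at -0.55, adjusted p = 0.00363, and Pcsk5 at -0.49). Of 8 cathepsin genes and cystatins, 1 was higher (Ctsl at 0.21) and 3 lower (Ctsk, a collagen-cutting cathepsin, at -0.36, Ctsz at -0.42 and Cst3 at -0.36). Of 10 ADAM genes, 2 were higher (Adam8 at 0.27 and Adam9 at 0.18) and 1 lower (Adam33 at -0.85). Of 4 ADAMTS-like genes, 2 were lower (Adamtsl1 at -0.49 and Adamtsl4 at -0.25), and of 4 procollagen C-proteinase genes, 1 was higher (Tll1 at 0.51). Of the proteoglycan substrates, Acan was lower (-0.33) and Vcan higher (0.32). Pcsk6, Adam33, Adamtsl1 and Tll1 kept their calls with any 1 library left out, and each of the others named since Htra3 and Prss35 lost its call in at least 1 such fit.

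In cord, 7 of 50 tested related genes were called higher and 3 lower, against 5.17% and 7.71% of all genes tested. The share called lower was thus not above that of all genes. With 1 library left out the counts were 2 to 5 higher and 0 to 2 lower. The procollagen C-proteinase list had 2 of 5 higher, the enhancers Pcolce (log2 difference 0.46, limma adjusted p = 0.0118, 0.053 without S87L replicate 1) and Pcolce2 (0.49, adjusted p = 0.00601, called with any 1 library left out). The cathepsin list had 3 of 8 higher and none lower: Ctss, a microglial protease (0.34, adjusted p = 0.00329, called with any 1 library left out), Ctsd (0.19) and Ctsk (0.20). Of 5 matrix serine proteases, 2 were higher (Htra1 at 0.17 and Htra3 at 0.28). Lower were Adam19 (-0.20) and Adam22 (-0.21) of 7 ADAM genes and Cd44 (-0.29, adjusted p = 0.0132, 0.0574 without S87L replicate 2) of 8 cofactors. Ctsd, Ctsk, Htra1, Htra3, Adam19 and Adam22 each lost the call without 4 or more of the 6 libraries in turn. No gene was called among 4 plasminogen activation genes, 4 convertases, 5 ADAMTS-like genes and 4 proteoglycans.

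In cord, 21 members were not tested. Mmp1a, Mmp1b, Mmp3, Mmp7, Mmp10, Mmp20, Mmp21 and Mmp27 had 0 reads in all 6 libraries, where 3 reads over the tissue would be 0.0084 to 0.0259 FPKM. The other 13 (Mmp8, Mmp11, Mmp12, Mmp13, Mmp25, Adamts7, Adamts8, Adamts12, Adamts13, Adamts14, Adamts15, Adamts18 and Adamts19) averaged 0.0159 to 0.478 FPKM from 8 to 334 reads over the tissue. In MEF, 18 members were not tested. Mmp1a, Mmp7, Mmp20 and Mmp21 had 0 reads in the 5 libraries, where 3 reads would be 0.0136 to 0.042 FPKM. The other 14 (Mmp1b, Mmp8, Mmp10, Mmp12, Mmp24, Mmp25, Mmp27, Adamts8, Adamts13, Adamts16, Adamts18, Adamts19, Adamts20 and Timp4) averaged 0.00298 to 0.447 FPKM from 1 to 191 reads.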

How the data were processed

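Total RNA from S87L and wild-type spinal cord and MEF was taken with TRIzol and made into strand-specific libraries with the NEBNext Ultra II Directional kit, per the labels' protocols. The authors deposited FPKM values for 55487 gene identifiers in 11 libraries, of which 55227 were found in the GENCODE annotation of GRCm38 used for symbols and coordinates. The submitters' processing notes name HTSeq 0.11.3, Picard 2.25.5, HISAT2 2.2.1 and Trimmomatic 0.39 and the build GRCm38. The sources used here give neither the annotation nor the use of strand in counting, so 13 members that share exon bases with another gene may share reads with it. Dividing the deposited FPKM values by their steps gave whole reads within 0.05 for 98.44% to 98.57% of values per library. These reads gave the depths and an alternative test with limma voom, which called 2949 genes in cord, 2789 in MEF, 2002 for the difference of the genotype effect between tissues and 13998 between wild-type cord and MEF. Floors given as reads cover counting error only.

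Groups and replicate numbers came from the library titles. log2(FPKM + 0.5) was fitted in R 4.3.3 by limma 3.58.1, with its trend and robust options, over genes with a mean of at least 0.5 FPKM in the fitted libraries (in each tissue for the difference of the genotype effect), each tissue alone for genotype. Adjusted p-values are Benjamini-Hochberg over all genes tested, and a gene was called under 0.05. SE is the moderated standard error. The fit was tested on simulated data. Alternatives were pseudocounts of 0.1 and 1, no filter and a filter of 1 FPKM, quantile and median ratio scaling, voom on recovered reads, a replicate block and leaving out each library. Values per library are given for members called for genotype or for the difference of the genotype effect between tissues and for the 6 highest members of each tissue, with up to 4 further genes of smallest p per comparison and per related list. Other members were given values where their position or their non-overlap after seeing the data led to it (Adamts8, Adamts14, Mmp10, Mmp12 and Mmp13 in cord). That choice left out members under the filter that were lower in every S87L library than in any wild-type library. In cord these were Mmp25, Adamts7, Adamts12 and Adamts19. In MEF they were Mmp25, Mmp27, Adamts16 and Adamts20. The members, the related and marker lists and the naming rule were chosen with earlier results of these data known. Promoter sequences are from RefSeq, build GRCm38.p6. The values of 1 related gene are not reported here.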

Additional observations from a re-analysis of the deposited data

Results flagged for a closer look

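The genotype difference, S87L minus wild-type, differed between MEF and spinal cord by the interaction term of the limma fit of all 11 libraries for 7 members. Each value is MEF minus cord on the log2(FPKM + 0.5) scale. Timp3 gave -0.61, being lower in S87L MEF and higher in S87L cord. Mmp14 gave 0.45, being lower in both and less so in MEF. Mmp23 gave -0.66 and Mmp17 gave -0.42. Adamts17 gave -0.66, Adamts9 gave -0.37 and Adamts6 gave 0.49. Marker levels moved with genotype in both tissues, with the meningeal and fibroblast sum at 3560 and 3860 FPKM in S87L MEF against 4120 to 4170 FPKM in wild-type MEF and at 475 to 508 FPKM in S87L cord against 354 to 380 FPKM in wild-type cord, and their part in these differences was not tested.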

How the results depend on the processing

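Over the members called in the main fit of each comparison, 479 pairs of gene and alternative setting were compared. Of these, 445 kept direction and side of the threshold and 33 lost the call. The remaining 1 turned direction, Adamts16 between wild-type cord and MEF, at -0.19 after quantile normalization. Of 385 pairs that left out 1 library, 312 kept the call, 73 lost it and 0 turned. Both counts pool the genotype calls with the calls between wild-type cord and MEF, which were far more stable. Of those tissue calls, only Adamts16 and Mmp9 changed with a setting, and only Mmp16 lost its call without 1 library. The other losses all fell in the genotype comparisons or in their difference between tissues. For cord, members called lower numbered 3 after quantile normalization, and related genes numbered 3 higher with no filter, 1 lower after quantile normalization and 8 lower with voom. For MEF, no filter called 788 genes with 5 related genes higher and 9 lower, and voom called 2789 genes. For the difference of the genotype effect between tissues, members called negative numbered 3 with a pseudocount of 0.1 and 2 with a filter of 1 FPKM, where 1 was positive. The cause was not tested.

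Deviations of same-numbered libraries from their group means had low correlations (0.149, -0.051 and 0.111 in cord, -0.07 and -0.028 in MEF, and 0.022, -0.007 and -0.028 between wild-type cord and MEF). Differently numbered libraries were not compared, so these values cannot settle whether the numbers pair libraries. The main fit used no pairing. With the replicate block, members called lower numbered 2 in cord. In MEF the block left 182 genes, 1 member higher, 1 member lower, 0 related genes higher and 2 lower, and Mmp13 and Mmp23 were the members that held. For wild-type cord against MEF the block called 13958 genes, with 8 members higher and 23 lower. For the difference of the genotype effect between tissues it left 960 genes, 1 member positive and 3 negative, and 3 related genes positive and 7 negative.

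Leaving out each library in turn gave, in cord, 838 to 1637 genes, 2 to 3 members higher, 2 to 4 lower, 2 to 5 related genes higher and 0 to 2 lower. In MEF it gave 565 to 1753 genes, 2 members higher in each fit, 5 to 12 lower, 4 to 9 related genes higher and 6 to 12 lower. For the difference of the genotype effect it gave 1136 to 1853 genes, 1 to 2 members positive, 2 to 6 negative, and 4 to 7 related genes positive and 8 to 11 negative. For wild-type cord against MEF it gave 13577 to 13848 genes, 8 to 9 members higher and 22 to 23 lower, and 14 to 16 related genes higher and 37 to 38 lower. Where a group was left with 1 library, that library was assumed to vary like the others. With no filter, 10 members were called higher and 28 lower between wild-type cord and MEF.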
